A study of Mus musculus with 6 samples.

Results

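The organic ion and drug transporters of the mouse kidney were taken as every gene in the deposited table whose symbol starts with Slc22a, Slco, Slc47a, Abcb, Abcc or Abcg followed by a number. This gave 69 of 23396 genes, divided by family name into 41 uptake carriers (26 Slc22 and 15 Slco) and 28 efflux carriers (2 Slc47, 10 Abcb, 10 Abcc and 6 Abcg). No expression value entered the choice. RNA came from frozen right kidneys of 6 male mice aged 6 months. In the knockout group, 3 mice of the strain C57BL/6N-Far2tm2a(KOMP)Wtsi/2J were homozygous for the targeted allele of Far2, which encodes a fatty acyl-CoA reductase. The wild-type group was 3 C57BL/6N mice. Whole kidney was used, so in these bulk samples fewer cells of a type and less RNA per cell cannot be told apart.

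Proximal tubule cells take organic anions and cations from the blood through some carriers of the Slc22 and Slco families on their basolateral side. Other members lie on the luminal side, among them those that return urate and carnitine from the filtrate. Multidrug and toxin extrusion proteins (Slc47) and ATP-driven pumps (Abcb, Abcc and Abcg) move drugs, conjugates and urate out of the cell, mostly into the urine. Not every carrier with an efflux family name is an exporter of the plasma membrane: Abcb8, for example, is mitochondrial.

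The libraries held from 15261362 to 20631158 fragments assigned to genes, and the carriers took from 0.754% to 0.916% of them. Within a group the libraries are numbered 0, 1 and 2 in the deposited table. Those numbers name no particular mouse. After removal of genes with low counts, 49 carriers were tested, 29 for uptake and 20 for efflux. The other 20 held from 0 to 11 fragments per library and were not tested: Abcb5, Abcb11, Abcc8, Abcc12, Abcg4, Abcg5, Abcg8, Slc47a2, Slc22a13b-ps, Slc22a14, Slc22a16, Slc22a20, Slc22a27, Slco1a5, Slco1b2, Slco1c1, Slco5a1, Slco6b1, Slco6c1 and Slco6d1. Of these, 4 (Abcb5, Slco6b1, Slco6c1 and Slco6d1) were at 0 in all 6 libraries, which allows up to 3 fragments each, or 0.145 to 0.197 CPM (counts scaled to a common library size) depending on the library. Far2 itself held 40, 40 and 22 fragments in the wild-type libraries and 28, 19 and 31 in the knockout libraries. Counts over the whole gene do not check a targeted allele.

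Chromosome 19 held 10 of the 26 members of the Slc22 family, of which 8 were tested. Slc22a28 and Slc22a30 on this chromosome shared nearly all of their promoter letters. Their counts are given below beside that of Slc22a19, also on this chromosome. The sequences are from RefSeq on GRCm38.p6, run from 250 bases before to 50 bases after the gene start, and lie on the minus strand at chr19:8131933-8132232 (Slc22a28), chr19:8405056-8405355 (Slc22a30) and chr19:7711261-7711560 (Slc22a19). Capitals mark bases with no match in the alignment of Slc22a28 and Slc22a30 to each other, and of Slc22a19 to Slc22a28.
Slc22a28: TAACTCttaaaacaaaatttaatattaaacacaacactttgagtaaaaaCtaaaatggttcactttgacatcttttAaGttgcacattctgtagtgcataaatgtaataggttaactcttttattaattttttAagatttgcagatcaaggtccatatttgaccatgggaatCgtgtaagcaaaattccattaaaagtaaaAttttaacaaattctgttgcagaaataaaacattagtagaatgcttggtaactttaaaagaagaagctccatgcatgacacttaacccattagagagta
Slc22a30: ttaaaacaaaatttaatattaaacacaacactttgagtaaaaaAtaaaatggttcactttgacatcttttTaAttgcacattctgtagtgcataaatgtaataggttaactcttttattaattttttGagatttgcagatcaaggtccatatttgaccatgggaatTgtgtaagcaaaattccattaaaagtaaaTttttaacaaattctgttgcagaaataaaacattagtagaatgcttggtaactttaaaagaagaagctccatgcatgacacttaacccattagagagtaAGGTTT
Slc22a19: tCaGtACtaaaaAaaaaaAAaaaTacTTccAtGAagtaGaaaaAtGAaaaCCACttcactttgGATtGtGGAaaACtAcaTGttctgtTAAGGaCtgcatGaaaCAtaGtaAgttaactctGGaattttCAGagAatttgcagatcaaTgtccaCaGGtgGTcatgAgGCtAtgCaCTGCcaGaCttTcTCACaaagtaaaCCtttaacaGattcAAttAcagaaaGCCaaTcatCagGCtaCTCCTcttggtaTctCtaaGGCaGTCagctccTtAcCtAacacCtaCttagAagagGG
Between Slc22a28 and Slc22a30, 288 of 300 bases matched (96.0%), and between Slc22a19 and Slc22a28, 193 of 300 (64.3%). The transcripts of the close pair were also alike. In the longest GENCODE transcript, stretches of at least 100 bases at 97% identity or more to another gene covered 100% of Slc22a28 and 57.2% of Slc22a30. How fragments matching several genes were counted is not given in the sources used here, so the counts of these genes are uncertain. In all, 15 of the 69 carriers had such a shared stretch, and in 6 it covered over 50% of the transcript.

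Promoters were found in the same RefSeq table for 54 of the 69 carriers. Binding motifs of the nuclear factors named for hepatocytes were rare both in them and in all genes with a promoter in the table. On either strand, an HNF1 motif was found in 1 of 54 (1.85%), that of Slc22a29, against 0.47% of all these genes. CAAAGTCCA (an HNF4 motif) was found in 0 of 54, against 0.555%. TATAAA was found in 11 of 54 (20.4%), against 15.7%. The HNF1 and HNF4 counts are too small to compare with the shares of all genes. The absence of a match says only that these letters are not in this window.

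The transporter repertoire was led by a few genes. Levels between genes are given as FPKM, which is per transcript length, as mean ± SD over the 6 libraries. Slc22a12, the urate exchanger URAT1 (19:6535845-6543032), had the highest level of all carriers at 517 ± 68.1 FPKM. The cation and proton exchanger Slc47a1 (279 ± 17.9), Slc22a18 (276 ± 17.7), the organic anion transporter Slc22a6 (253 ± 25.2) and the urate and drug pump Abcg2 (232 ± 17.8) came next. Neighbours among these 4 differed by less than the larger of their SDs, whereas Slc22a12 lay above all of them. Among lower levels were those of the bile acid and steroid conjugate carrier Slco1a1 (169 ± 59.7), the organic cation transporter Slc22a2 (156 ± 17.3) and the carnitine carrier Slc22a5 (111 ± 7.54). Slco1a1 had the widest spread of these, from 88.0 to 239 FPKM.

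Uptake and efflux differed in how the total was divided. Slc22a12 made up 21.0% to 24.0% of the summed FPKM of uptake carriers in a library. Among efflux carriers, Slc47a1 made up 38.3% to 40.9% and Abcg2 31.2% to 34.2%. Summed uptake FPKM was 2328, 1987 and 2355 in wild-type and 2206, 2653 and 2490 in knockout libraries. Summed efflux FPKM was 725, 655 and 655 in wild-type and 714, 731 and 727 in knockout libraries. The groups overlapped in both sums.

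**Figure D1:**
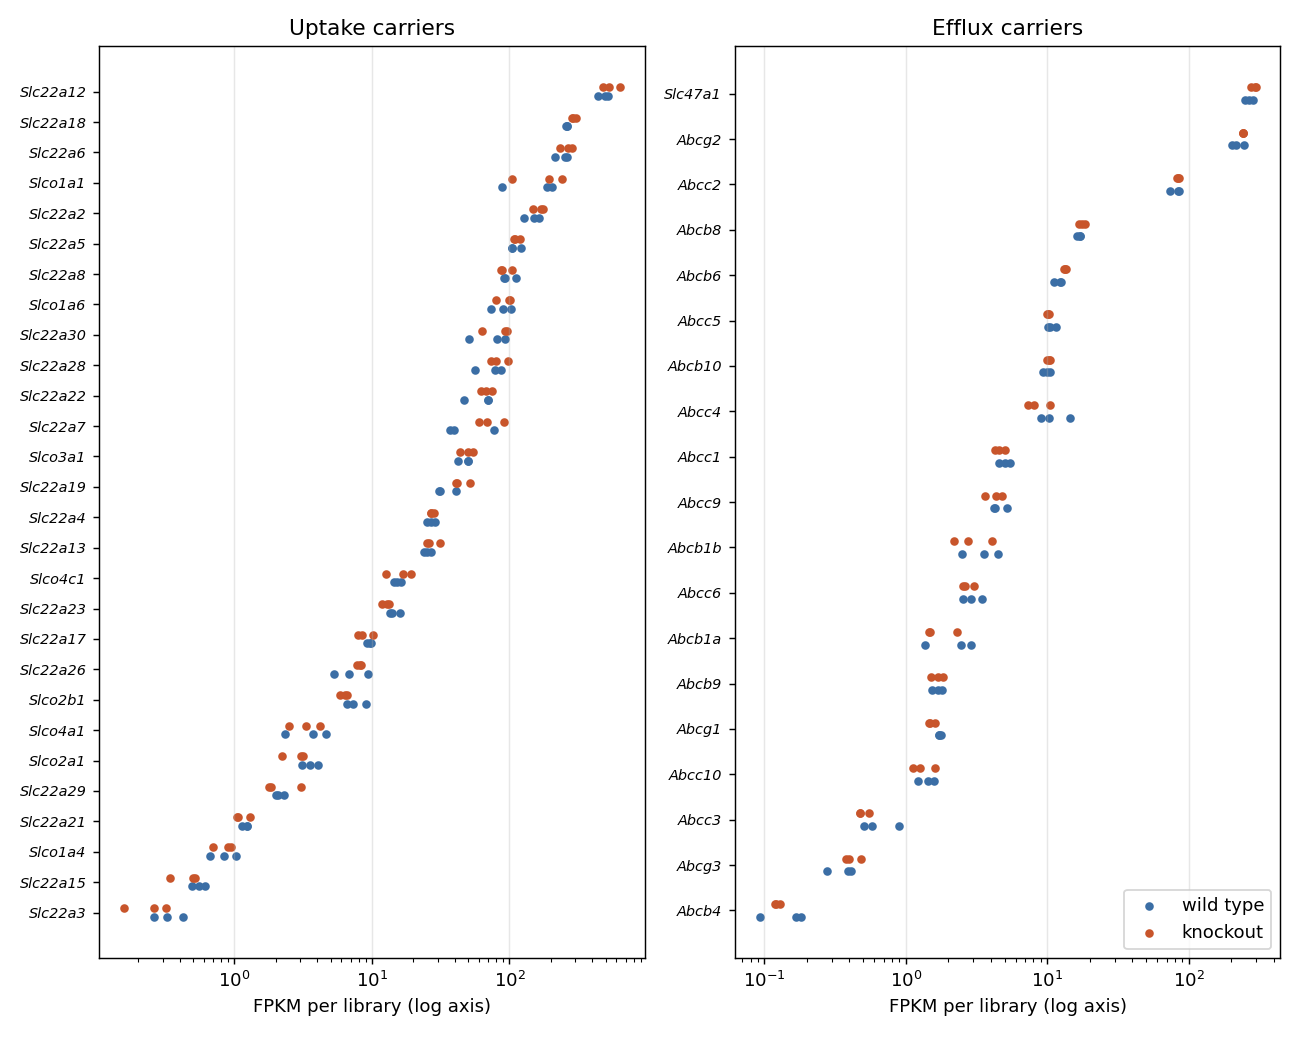
Levels of the tested carriers reported by name, in each of the 6 libraries, in FPKM on a log axis, for wild-type and knockout libraries. Slc22a12 has the highest level, at 517 ± 68.1 FPKM, and the groups overlap for most genes.

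The comparison asked whether carrier transcripts differ between Far2 knockout and wild-type kidneys. After adjustment over all genes by Benjamini-Hochberg, the quasi-likelihood test of edgeR called 0 of 49 carriers, the smallest adjusted p being 0.599. DESeq2 called 0 carriers as well. In the whole table edgeR called 0% of 14354 genes and DESeq2 0.0776% of 15457. At an unadjusted edgeR p under 0.05, 5 of 49 carriers (10.2%) were counted, against 8.31% of all genes, so the share lay near the background. They were Slc22a19, with a higher mean in knockout (3.17% of all genes), and Slc22a23, Slco2a1, Slco2b1 and Abcc4, with a lower mean (5.14%). Without wild-type library 1, 0 of 29 uptake and 0 of 19 efflux carriers tested in that fit had an unadjusted p under 0.05. The count was 1 uptake and 0 efflux carriers without knockout library 1, and 3 and 0 without knockout library 2. Of all genes tested in these fits, 6.16% counted without wild-type library 1. The share was 3.53% without knockout library 1 and 7.08% without knockout library 2. With limma on log2(FPKM + 1) or log2(FPKM + 0.1) the 4 with a lower mean no longer counted. Uptake then had 2 higher (Slc22a18 and Slc22a19) and 0 lower, against 7.83% and 7.82% of all genes in either direction. Without wild-type library 2 uptake had 3 higher and 1 lower, against 7.54% of all genes in either direction. The 95% interval of the log2 difference lay within ±1 for 46 of 49 carriers and within ±0.5 for 29 of 49.

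**Figure D2:**
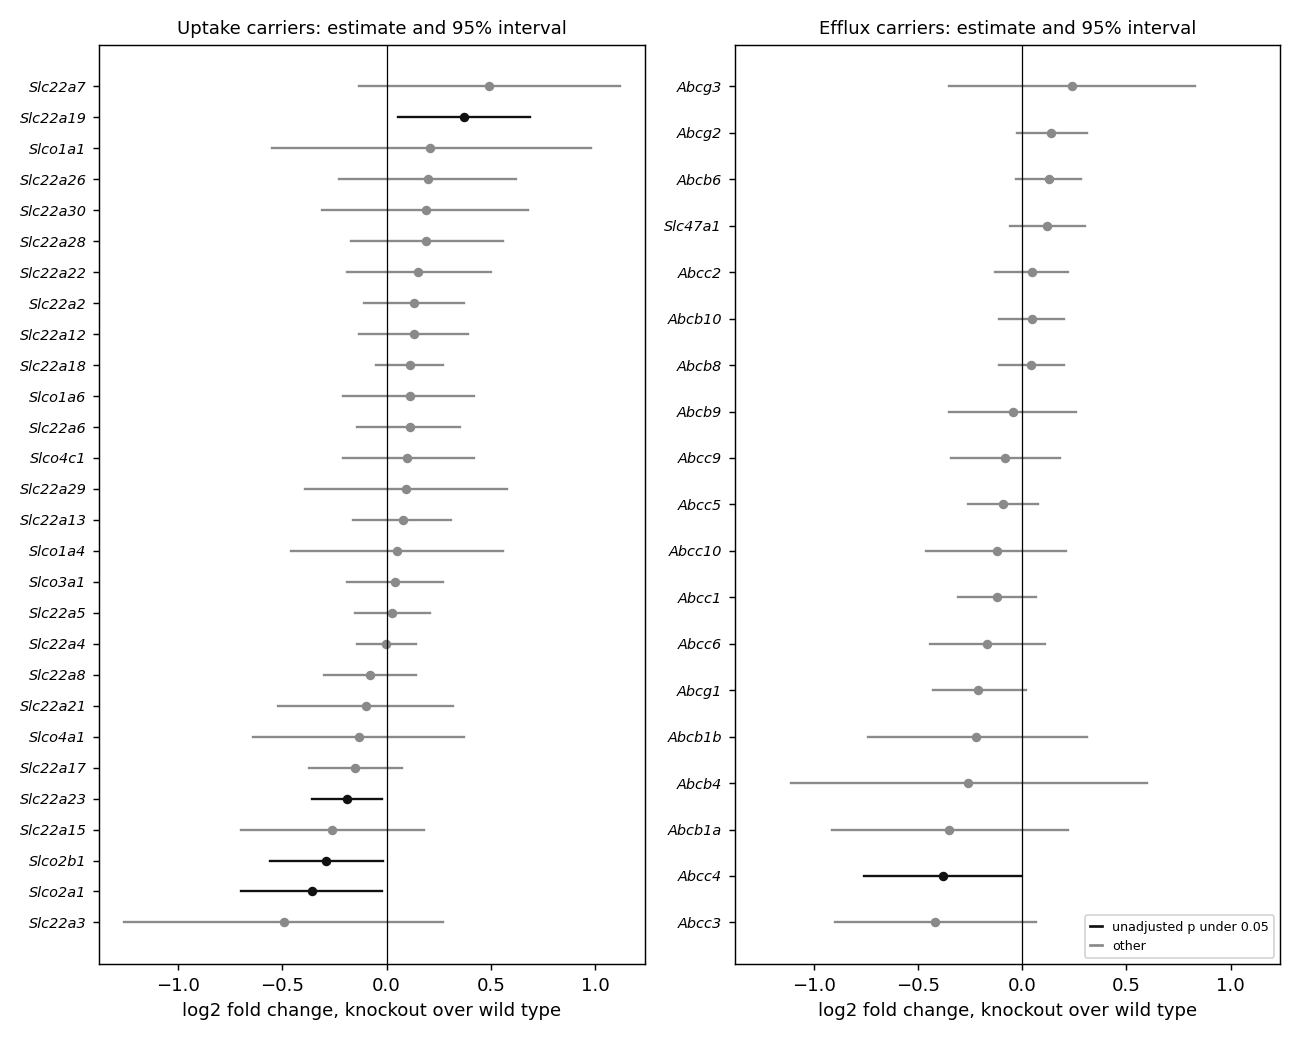
Log2 difference, knockout minus wild type, of the tested carriers reported by name, uptake and efflux apart. The 95% interval was derived from the F statistic of edgeR, and an unadjusted p under 0.05 is in black. Most intervals span 0, and none of the 49 passed the adjusted test.

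Uptake carriers had a higher mean in knockout in 19 of 29 cases and a median log2 difference of 0.094. Efflux carriers had a higher mean in 8 of 20 and a median of -0.087. Over all genes tested, 48.3% had a higher mean and the median was -0.0066. Both medians lay nearer 0 without wild-type library 1, at -0.0014 for uptake and -0.0092 for efflux. Slc22 had 14 higher and 7 lower means, and Abcc had 1 higher and 7 lower, with a median of -0.12. The spread between libraries of a group was wider for uptake carriers (median SD 0.21, log2) than for efflux carriers (0.13), the latter being that of all genes tested (0.13).

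Organic anion transporters of Slc22 gave the largest differences in the higher direction among uptake carriers. Slc22a7, the organic anion transporter OAT2 (17:46432183-46438457), had CPM of 73.5, 83.3 and 167 in wild-type libraries 0, 1 and 2, and 120.4, 191 and 144 in knockout libraries 0, 1 and 2. Wild-type library 2 lay within the knockout range and the other wild-type libraries lay below it. The log2 difference was 0.49 ± 0.28 (SE, 95% interval -0.13 to 1.12, edgeR adjusted p 0.627). In the authors' deposited table the mean FPKM was 51.0 in wild type and 73.3 in knockout, with a log2 fold change of 0.52 and a q-value of 0.0106. It was the only carrier of 46 tested there with a q-value under 0.05, against 0.657% of all genes tested in that table. Left without wild-type library 2, the log2 difference was 0.95 (edgeR adjusted p 0.310), and over all single libraries left out it ranged from 0.28 to 0.95.

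Slc22a19 (19:7673061-7711310), an organic anion transporter whose promoter is shown above, had CPM of 54.8, 56.1 and 77.6 in wild-type libraries and 73.2, 94.3 and 76.0 in knockout libraries. Wild-type library 2 again lay among the knockout libraries. Knockout exceeded wild type by 0.37 ± 0.14 on the log2 scale (edgeR p 0.0261, adjusted p 0.599), and the authors' deposited table gave a q-value of 0.150. Slc22a28 and Slc22a30, whose promoters are printed above with it, had lowest values in wild-type library 1 (97.9 and 88.6 CPM) and highest in knockout library 1 (178 and 173 CPM). Their log2 differences were 0.19 ± 0.16 and 0.19 ± 0.22. Of the 8 tested Slc22 carriers on chromosome 19, 7 had a higher mean in knockout. Of these 8, Slc22a28 and Slc22a30 share sequence with each other and Slc22a29 shares 24.3% of its transcript with the untested Slc22a27, and the remaining 5 had no shared stretch.

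Among the most abundant uptake carriers, differences in CPM were small beside the spread for Slc22a12 and Slc22a6. Slc22a18 held 352, 378 and 379 CPM in wild-type and 375, 420.0 and 403 CPM in knockout libraries, with overlap. Its log2 difference was 0.11 ± 0.072 (edgeR adjusted p 0.660). In FPKM its groups did not overlap, at 263, 259 and 260.0 in wild-type and 285, 302 and 288 in knockout libraries. With limma on log2(FPKM + 1) its p was 0.0349 (adjusted p 0.630). The share of all genes without overlap in FPKM was not counted. Slc22a12 held 1327, 1198 and 1375 CPM in wild-type and 1207, 1647 and 1413 CPM in knockout libraries. Knockout library 1 was the highest and wild-type library 1 the lowest, and the groups overlapped. Knockout minus wild type was 0.13 ± 0.12 on the log2 scale (95% interval -0.13 to 0.39). It ranged from 0.010 without knockout library 1 to 0.24 without knockout library 0. Slc22a6 (19:8618039-8628299) held 1046, 884 and 1085 CPM against 946, 1189 and 1111, with the same libraries at the extremes and an interval of -0.14 to 0.35. Its difference was 0.11 ± 0.11, and from 0.026 to 0.20 with 1 library left out. Slc22a8, the related OAT3, had a lower mean in knockout (log2 difference -0.079 ± 0.098). For the ergothioneine carrier Slc22a4 the difference was -8.23e-04 ± 0.063.

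Slc22a23 (13:34179158-34345182) was the only uptake carrier whose groups did not overlap in CPM, against 14.1% of all genes tested in either direction and 6.96% lower in knockout. Its CPM were 86.5, 102 and 90.4 in wild-type and 84.2, 77.2 and 82.4 in knockout libraries. All knockout libraries lay below all wild-type libraries. The log2 difference was -0.19 ± 0.077 (edgeR p 0.0312, adjusted p 0.599), and -0.12 without wild-type library 1.

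Among Slco carriers, Slco2a1, the prostaglandin transporter (9:102988712-103096002), had CPM of 13.1, 17.7 and 16.0 in wild-type and 12.9, 9.64 and 13.7 in knockout libraries. Knockout library 2 lay above wild-type library 0, and the others did not overlap. The log2 difference was -0.36 ± 0.15 (edgeR p 0.0393, adjusted p 0.599), and -0.23 without knockout library 1. Slco2b1, a carrier of steroid sulfates (7:99657804-99711340), had CPM of 32.9, 46.5 and 38.5 against 32.2, 34.2 and 30.2. Knockout library 1 lay above wild-type library 0 in CPM. In FPKM the groups of Slco2b1 did not overlap, at 6.63, 9.10 and 7.24 in wild-type and 6.40, 6.60 and 5.84 in knockout libraries. Here too the share of all genes without overlap in FPKM was not counted. Its log2 difference was -0.29 ± 0.12 (edgeR p 0.0394, adjusted p 0.599), and -0.15 without wild-type library 1.

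Slco1a1 (6:141907282-141946962) varied more within a group than any other tested carrier. Its CPM were 611, 279.7 and 703 in wild-type and 358, 680.0 and 809 in knockout libraries. The highest was 2.89 times the lowest, and each group had 1 low library. For Slco1a1 the log2 difference was 0.21 ± 0.34 (95% interval -0.55 to 0.98). It reversed to -0.029 without knockout library 2 and to -0.090 without wild-type library 1. It lies on the chromosome of Far2, where 7 carriers lay within 10 Mb of that gene, the nearest being Abcc9 at 5.34 Mb. Of these, 4 were tested and 0 had an unadjusted p under 0.05, the smallest being 0.465 by edgeR. The other abundant members of the family, Slco1a6 and Slco3a1, had log2 differences of 0.11 ± 0.14 and 0.039 ± 0.10. Without wild-type library 1 these were -0.028 and -0.043, and without knockout library 2 Slco3a1 was at -0.036.

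**Figure D3:**
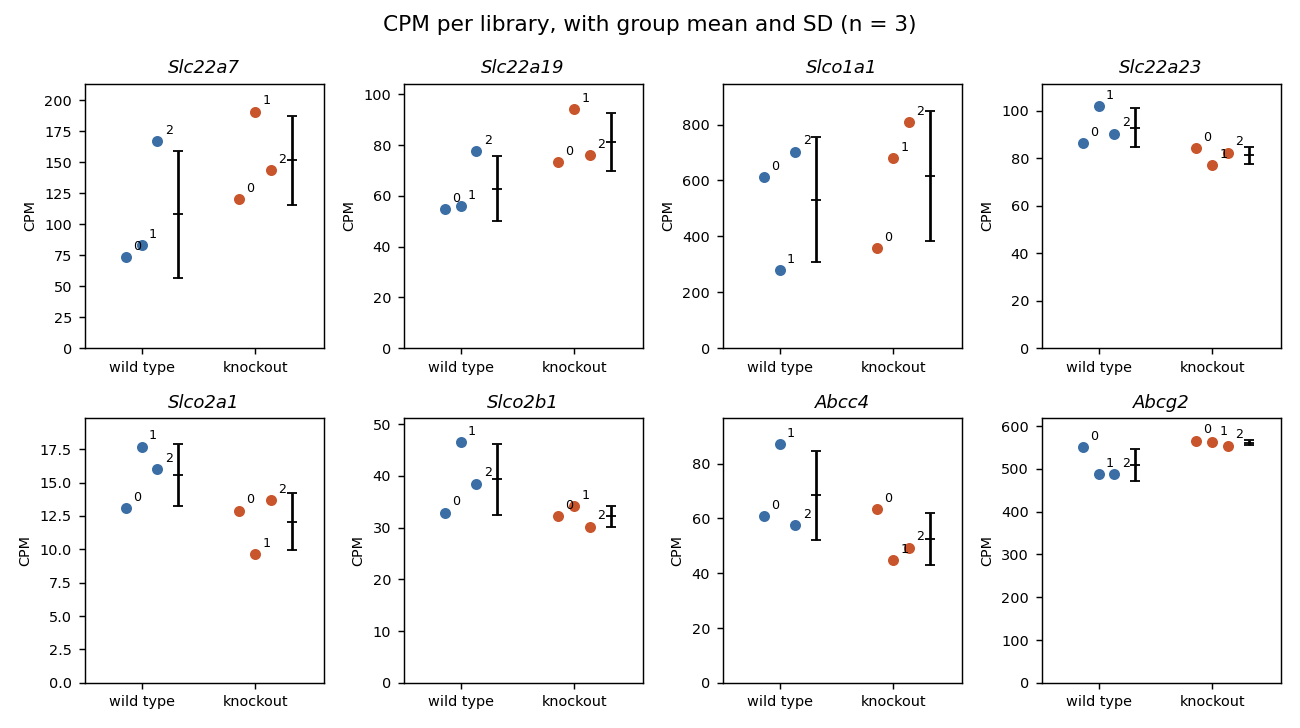
CPM of selected carriers in each library, with wild-type and knockout libraries apart each point marked with its library number and bars for the mean and SD of 3 libraries. Slc22a7 and Slc22a19 overlap through wild-type library 2, and Slco1a1 has 1 low library in each group.

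Among efflux carriers, the urate and drug pump Abcg2 (6:58584523-58695676) held 551, 487 and 487 CPM in wild-type and 566, 563 and 554 in knockout libraries. All knockout libraries lay above all wild-type libraries in CPM. In FPKM the groups overlapped, with wild-type library 0 at 246 against 244, 242 and 242 in knockout libraries. For Abcg2 the log2 difference was 0.14 ± 0.074 (edgeR p 0.0859, adjusted p 0.607). Abcb6, a porphyrin transporter, also did not overlap in CPM and had a higher mean (0.13 ± 0.070), but 71.1% of its transcript is shared with Gm29253. Abcg1, which exports cholesterol, did not overlap with a lower mean: 10.5, 10.5 and 11.0 CPM against 8.82, 9.84 and 9.11 (log2 difference -0.21 ± 0.10). These 3 of 20 efflux carriers (2 higher and 1 lower) are set against 14.1% of all genes without overlap in CPM in either direction. By direction, the shares of all genes were 7.12% higher and 6.96% lower. Of all 49 tested carriers, 4 had no overlap of groups in CPM.

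Abcc4, the pump for cyclic nucleotides and organic anions (14:118482692-118706219), held 60.7, 87.1 and 57.5 CPM in wild-type and 63.3, 44.9 and 49.3 in knockout libraries. Knockout library 0 lay within the wild-type range, and wild-type library 1 stood above the rest. The log2 difference was -0.38 ± 0.17 (95% interval -0.76 to -0.0079, edgeR p 0.0462, adjusted p 0.599). The authors' deposited table gave a q-value of 0.0987. Without wild-type library 1 the log2 difference was -0.17.

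Slc47a1 (11:61343401-61378345) held 751, 675 and 761 CPM in wild-type and 743, 824 and 811 in knockout libraries. The groups overlapped through knockout library 0. Its log2 difference was 0.12 ± 0.080, and 0.071 without wild-type library 1. Of the other leading efflux carriers, the conjugate pump Abcc2 had a difference of 0.049 ± 0.078 (-0.014 without wild-type library 1) and the mitochondrial Abcb8 had 0.043 ± 0.068. Abcc5 had -0.093 ± 0.074 and Abcg3 0.24 ± 0.26. Abcb1a and Abcb1b, which encode P-glycoproteins, had -0.35 ± 0.25 and -0.22 ± 0.23, each with wild-type library 1 highest.

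Libraries shared extremes across carriers. Wild-type library 1 was lowest for 10 of 29 uptake carriers (34.5%), against 23.0% of all genes tested, and highest for 7 of 29 (24.1%), against 21.1%. It was highest for 9 of 20 efflux carriers (45.0%). Wild-type library 0, in which the injury and macrophage markers described below were high, was lowest for 7 of 29 uptake carriers (24.1%), all of Slc22, against 13.4% of all genes. Knockout library 1 was highest for 10 of 29 uptake carriers (34.5%), all of Slc22, against 20.9% of all genes. It was lowest for 6 of 20 efflux carriers (30.0%), against 22.0%.

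**Figure D4:**
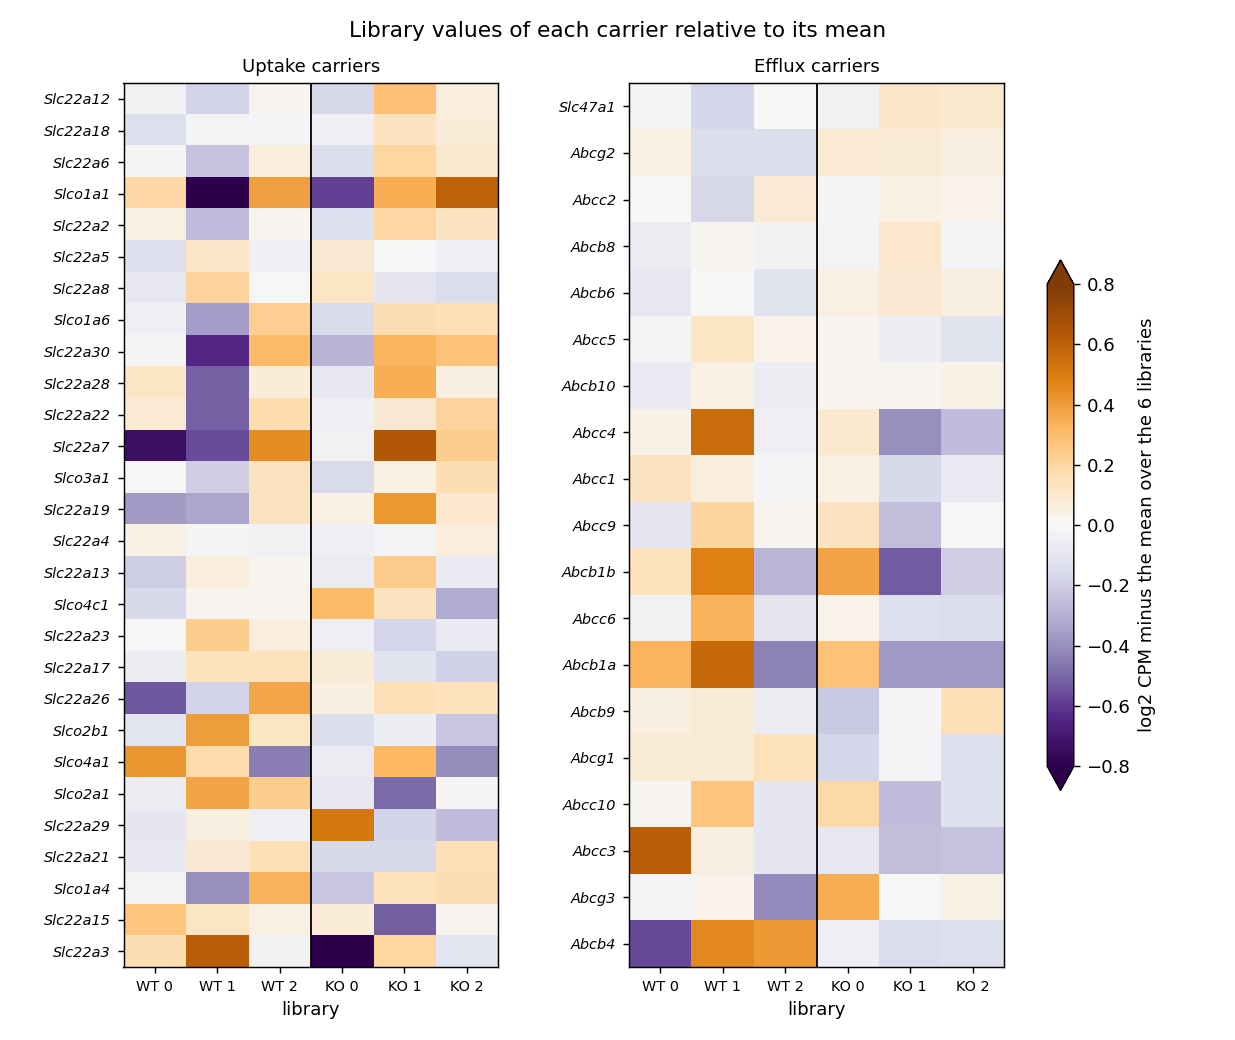
Log2 CPM of the tested carriers reported by name, in each library, minus the gene's mean over the 6 libraries, uptake at left and efflux at right, in order of level. Wild-type library 1 is low for many uptake carriers and high for many efflux carriers.

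Markers of other cells and states were read beside the carriers, and in none of the 11 lists did a gene pass the adjusted edgeR test. Proximal tubule markers had a higher mean in knockout for 14 of 15 genes (median log2 difference 0.12), against 48.3% of all genes tested. Groups did not overlap in CPM for 5 of the 15 (33.3%), all higher in knockout, against 7.12% of all genes. Pck1, an enzyme of glucose synthesis, had the smallest p of that list (0.35 ± 0.13, edgeR p 0.0217, adjusted p 0.599). Their summed CPM was 32803 to 37367 in wild-type and 36856 to 37187 in knockout libraries. Tubular injury markers had a lower mean in 8 of 11 (median -0.38) and stood apart in wild-type library 0, where their sum was 1642 CPM. It was 816 and 828 CPM in wild-type libraries 1 and 2 and 811 to 928 CPM in knockout libraries. All 11 were highest there. Havcr1 in that library was 21.5 CPM against 0.617 to 0.916 in the other libraries. Macrophage markers had a lower mean in 11 of 11 (median -0.47), at 520.1 CPM in wild-type library 0 and 279 to 301 in the others of the group, against 231 to 312 in knockout. Slc22a7 and Slc22a19 were lowest in that library. Without it their log2 differences were 0.28 and 0.28. These were 0.29 and 0.25 without knockout library 1, and 0.34 and 0.30 without wild-type library 1. With any other library left out they were from 0.42 to 0.95. Any link of these differences to the markers was not tested.

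Fat markers had a higher mean in 6 of 6 (median 1.11), at 29.1 to 42.2 CPM in wild-type and 41.9 to 84.3 in knockout. Knockout library 2 was highest and wild-type library 1 lowest for all 6, and the other knockout libraries had 46.5 and 41.9 CPM. The smallest p was that of Fabp4 (log2 difference 0.45 ± 0.12, edgeR p 0.00423, adjusted p 0.599). The part of these cells in the carrier values was not tested. Endothelial markers had 5 higher and 5 lower means, collecting duct markers 5 and 5, thick limb and distal tubule markers 6 and 2, and blood cell markers 1 and 2.

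Of genes that serve the carriers, partners and driving carriers had 6 higher and 8 lower means (median -0.022), Sgk1, a kinase that regulates epithelial transport, having the smallest p (-0.33 ± 0.14, edgeR p 0.0402, adjusted p 0.599). Other organic solute carriers had 12 and 6 of 18 (median 0.040), with Slc29a3 at -0.16 ± 0.064. Nuclear regulators of transporters had 7 and 10 of 17 (median -0.054). Bcl6, a transcriptional repressor, had CPM of 40.6, 20.3 and 82.1 in wild-type and 12.2, 14.8 and 12.8 in knockout libraries. All its knockout libraries lay below all wild-type libraries, as for 6.96% of all genes tested. The log2 difference of Bcl6 was -1.84 ± 0.41 (edgeR p 0.00120, adjusted p 0.599). Of the 17 regulators, 4 had an unadjusted edgeR p under 0.05 (23.5%, 1 higher and 3 lower), against 8.31% of all genes. Groups did not overlap in CPM for 3 (17.6%, all lower), against 14.1% in either direction. The list was chosen with earlier results of these data known.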

How the data were processed

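RNA from right kidneys was sequenced from stranded libraries depleted of ribosomal RNA, as the labels' protocols state. Tools listed in the submitters' processing notes, without their roles, are SAMtools 1.2, Cuffdiff, cutadapt 1.2.1, Cufflinks 2.2.1, Bowtie2 2.2.3 and TopHat2 2.0.13, with the build mm10. What gene models and strand setting were used, and how fragments with several alignments were treated, is not given in the sources used here. Per the file headers, the authors' deposited values are an estimated count of fragments and an FPKM for each gene in each library. The authors' deposited table gives mean FPKM, a log2 fold change, a p-value and a q-value per gene.

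The estimated counts were rounded. Genes kept by filterByExpr (14354) were tested with edgeR 4.0.16 after TMM scaling (quasi-likelihood F test, two-sided) in R 4.3.3, with Benjamini-Hochberg adjustment and a threshold of 0.05. CPM used TMM-scaled library sizes. The biological coefficient of variation was 10.1%. As alternatives, scaling was by RLE or upper quartile, the filter was left off or set to 1 CPM in 3 libraries, and the other tests were DESeq2 1.42.0, limma 3.58.1 on log2(FPKM + 1) and log2(FPKM + 0.1). Each library was also left out in turn. Shared transcript sequence was found with BLAST 2.17.0, and promoters were aligned with Biopython 1.88. The test was tried on simulated data. Nothing in the labels says more of how mice were bred or drawn. The p-values weigh the difference between groups only against the spread between these samples within a group.

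Carriers named are the up to 3 with the highest mean FPKM in each family, those with an unadjusted p under 0.05 or no overlap of groups, and, of each list, the gene with the smallest p. Slc22a7 and other carriers given with values were chosen after their values were seen. The carriers and the 11 lists were chosen with earlier results of these data known. A few genes are counted in totals and medians but not reported here by name.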

Additional observations from a re-analysis of the deposited data

How the results depend on the processing

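The count of carriers past the adjusted threshold was 0 in the main test and in all 13 alternatives. Of uptake carriers, 4 had an unadjusted p under 0.05, against 2 with limma on log2(FPKM + 1) and 2 on log2(FPKM + 0.1), and from 0 to 4 with 1 library left out (0 without wild-type library 1, 1 without knockout library 1, 2 without knockout library 0). Of efflux carriers, 1 did, against 0 and 0 with limma, and from 0 to 4 with 1 library left out (4 without knockout library 0, 3 without wild-type library 0 or 2, 0 without knockout library 1 or 2 or wild-type library 1). The median log2 difference of uptake carriers ranged from -0.0014 to 0.13 with 1 library left out, and that of efflux carriers from -0.15 to -0.0092. Of all genes tested, 1193 (8.31%) had an unadjusted p under 0.05. With 1 library left out the count ranged from 516 (3.53%, without knockout library 1) to 1615 (11.2%, without wild-type library 0). The share was 8.75% without knockout library 0 and 7.08% without knockout library 2. It was 6.16% and 7.54% without wild-type libraries 1 and 2. With limma it was 7.83% on log2(FPKM + 1) and 7.82% on log2(FPKM + 0.1).

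Among 21 carriers chosen by rule or for the authors' call and 13 alternatives, 267 differences kept their sign and 6 reversed (full ranges with 1 library left out reached 0.49 for Slco1a1, 0.26 for Slco1a6 and 0.12 for Slco3a1): Abcc2 without wild-type library 1 (-0.014), Slco1a1 without knockout library 2 (-0.029) or wild-type library 1 (-0.090), Slco1a6 without wild-type library 1 (-0.028), and Slco3a1 without knockout library 2 (-0.036) or wild-type library 1 (-0.043). The cause was not tested. The 20 carriers below the filter were left out of the main test for low counts. With the filter off, or with DESeq2, 38 uptake and 27 efflux carriers entered the fit. No paired analysis was possible because the library numbers match no sample label and the labels give no shared replicate numbers.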
